A study of Mus musculus with 7 samples.

Results

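The H3K9me3 peaks of mouse chromosome 5 from 13000000 to 17999999 (mm9) were examined, an interval of 5 Mb that holds the Speer4 and Speer7 genes and, beside them, Sema3e, Pclo and Cacna2d1. The mark, histone H3 trimethylated at lysine 9, was mapped by ChIP-seq in Setdb1 cKO iMEFs, a model of differentiated cells made of immortalized mouse fibroblasts. Adding 4-hydroxytamoxifen (4OHT) to them removes Setdb1, an enzyme that methylates H3K9. The WT library came from cells of this line with no treatment, and the KO library from cells of the same line given 4OHT for 4 days and harvested at day 7. There was 1 H3K9me3 library per group, so no difference could be set against a spread between cultures, and p-values are not given. Effects of 4OHT itself and of the deletion cannot be told apart. Members were all peaks of either list whose start lay in the interval: 115 of the 23190 WT peaks and 94 of the 3775 KO peaks. The interval was selected on the peak numbers of these lists, so its peak numbers, heights and overlaps are a description.

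Setdb1 places trimethylation on H3K9 at silenced chromatin, in particular at endogenous retroviruses and other repeats. The Speer genes (spermatogenesis associated glutamate (E)-rich protein) are a rodent family transcribed in the testis, which spread over chromosome 5 by repeated duplication. Other annotated members, Speer5-ps1, Speer6-ps1 and Speer2, lie on chromosomes 10, 13 and 16. Because recent copies are nearly identical, a short read often fits several of them equally well, and here 1 of the valid places was drawn at random for such a read.

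Peaks of the interval fell into families of related sequence. Members were grouped where they shared a 31-mer, a stretch of 31 bases on either strand, and the 3 groups with the most members are shown by their highest-scoring member and by the member elsewhere with which it shared the longest run, in capitals. The score is the −log10 of the peak's q-value. Group 1 held 13 WT and 11 KO peaks at 13 separate places, near 5 of the Speer4-like genes described below and in the left flank, and the pair shown is a KO peak 19.8 kb downstream of the start of Speer4c and a WT peak 18.5 kb downstream of that of 4930572O03Rik.
KO peak of group 1, chr5:15200152-15200291, + strand: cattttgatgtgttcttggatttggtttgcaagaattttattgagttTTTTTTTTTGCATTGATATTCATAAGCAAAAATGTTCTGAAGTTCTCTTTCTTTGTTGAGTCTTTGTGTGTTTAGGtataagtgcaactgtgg
WT peak of group 1, chr5:15144217-15144416, - strand: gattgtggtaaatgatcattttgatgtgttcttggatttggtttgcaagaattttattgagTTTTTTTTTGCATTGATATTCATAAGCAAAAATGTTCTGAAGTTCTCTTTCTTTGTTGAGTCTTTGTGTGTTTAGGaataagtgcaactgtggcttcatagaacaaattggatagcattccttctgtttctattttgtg
The run shared by both was 76 bases. Group 3 held 4 WT and 6 KO peaks at 8 places near 5 of the Speer4-like genes, and its highest member and a WT peak near 4930572O03Rik shared 210 bases, of which 199 are shown.
First WT peak of group 3, chr5:14899971-14900170, + strand: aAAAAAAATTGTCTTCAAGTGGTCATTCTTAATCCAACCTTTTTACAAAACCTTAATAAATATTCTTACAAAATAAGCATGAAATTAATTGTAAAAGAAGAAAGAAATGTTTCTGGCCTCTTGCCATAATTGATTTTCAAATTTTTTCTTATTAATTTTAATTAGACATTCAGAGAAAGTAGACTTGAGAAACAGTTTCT
Second WT peak of group 3, chr5:15146765-15146964, + strand: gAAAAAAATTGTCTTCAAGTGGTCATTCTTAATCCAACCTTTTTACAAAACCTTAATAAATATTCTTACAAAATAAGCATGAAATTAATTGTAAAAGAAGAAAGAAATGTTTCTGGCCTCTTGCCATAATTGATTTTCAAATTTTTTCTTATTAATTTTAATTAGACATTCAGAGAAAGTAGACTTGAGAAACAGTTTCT
Group 2 held 12 WT peaks and no KO peak, all outside the stretch with the Speer4-like genes, at pileups of 9 to 16 fragments. Outside that stretch there were 35 WT and 5 KO peaks in all, so 0 KO peaks does not set the group apart. The 31-mers of its peaks occurred a median of 2 to 6137 times in the genome. Group 1 too held such a repeat, a WT peak of the left flank at 10740.5 times. The highest member of group 2 and a peak 1.56 Mb away shared 145 bases.
First WT peak of group 2, chr5:16246133-16246332, + strand: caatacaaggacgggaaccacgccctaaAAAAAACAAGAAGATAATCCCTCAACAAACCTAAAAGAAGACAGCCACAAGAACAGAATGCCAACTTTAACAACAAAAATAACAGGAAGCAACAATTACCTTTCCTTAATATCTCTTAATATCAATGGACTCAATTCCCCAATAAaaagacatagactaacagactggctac
Second WT peak of group 2, chr5:17805797-17805996, + strand: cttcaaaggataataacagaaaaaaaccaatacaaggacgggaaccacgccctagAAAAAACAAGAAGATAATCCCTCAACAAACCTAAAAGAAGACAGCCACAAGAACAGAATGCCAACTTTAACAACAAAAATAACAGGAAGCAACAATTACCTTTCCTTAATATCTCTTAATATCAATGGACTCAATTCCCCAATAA
The last pair of sequences shows a place marked in both lists and a KO peak inside a gene. In the first, capitals mark the bases that also lay in a KO peak, 143 of the 200 shown.
WT peak overlapped by KO peaks, chr5:14955214-14955413, + strand: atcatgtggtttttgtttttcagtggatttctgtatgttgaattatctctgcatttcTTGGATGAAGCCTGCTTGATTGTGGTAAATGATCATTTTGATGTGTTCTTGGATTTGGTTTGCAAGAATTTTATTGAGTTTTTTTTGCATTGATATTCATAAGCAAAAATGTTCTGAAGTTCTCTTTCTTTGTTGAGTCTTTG
In the second, a KO peak in an intron of Gm9758, capitals mark bases found in another Speer4-like gene. The whole peak of 117 bp occurred without a mismatch in Gm9758, Speer4e and Speer4d.
KO peak in Gm9758, chr5:14913894-14914010, + strand: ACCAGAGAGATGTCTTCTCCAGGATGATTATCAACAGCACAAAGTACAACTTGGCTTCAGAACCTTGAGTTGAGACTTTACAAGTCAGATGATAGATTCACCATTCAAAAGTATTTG

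The peaks were not spread evenly over the interval. The 4 neighbouring bins of 100 kb from 14900001 to 15300000 were the only ones with at least 5 peaks in either list, a run chosen after the data were seen and called the dense block here. It held 80 of the 115 WT peaks and 89 of the 94 KO peaks. The other 4.6 Mb, called the flanks, held 35 WT and 5 KO peaks. The 4 bins held 20, 23, 29 and 8 WT peaks and 30, 19, 31 and 9 KO peaks, whereas no bin of the flanks held more than 3 WT peaks or 1 KO peak. The density was 200 WT and 222.5 KO peaks per Mb in the block, compared with 7.61 and 1.09 in the flanks and 8.73 and 1.42 over the whole lists.

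**Figure D1:**
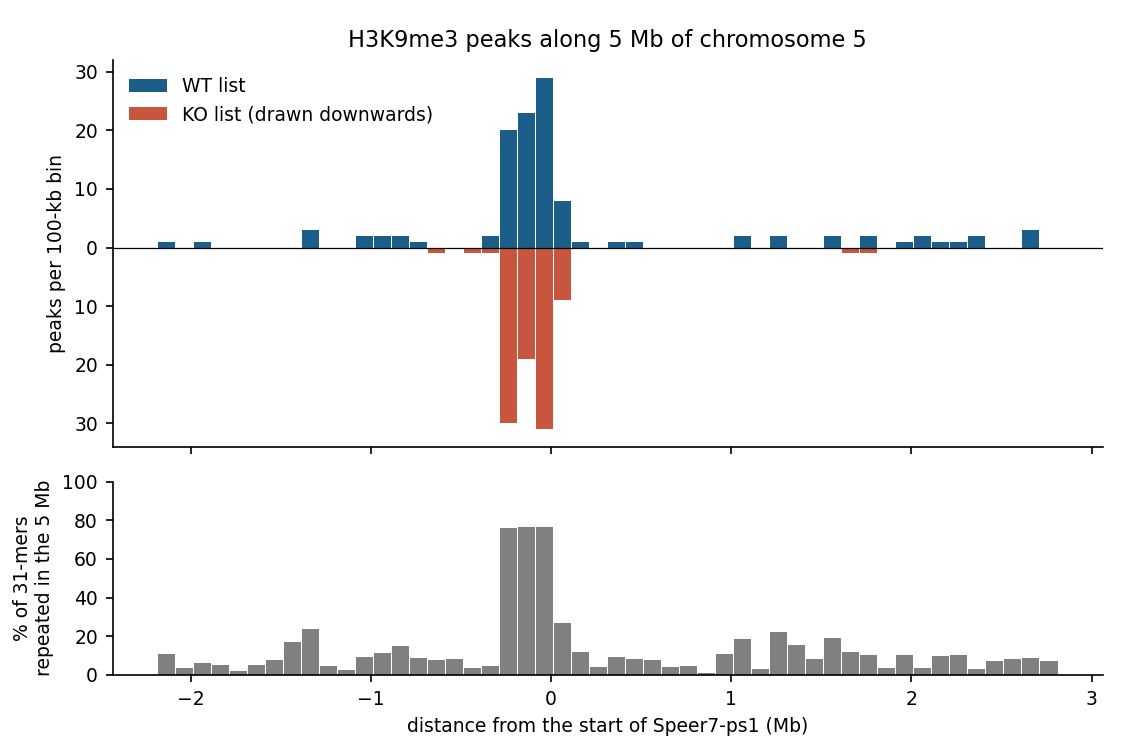
WT peaks (bars up) and KO peaks (bars down) per 100-kb bin, above the percentage of 31-mers of each bin that occur again within the 5 Mb. The x axis is the distance from the start of Speer7-ps1 in Mb. Peaks of both lists crowd into the 4 bins of the dense block, 3 of which are over 76% repeated.

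In number, KO peaks were close to WT peaks in the block and few in the flanks. There were 111 KO peaks per 100 WT peaks in the block (95% interval 82.3 to 150) and 14.3 in the flanks (5.77 to 35.3), against 81.7 in the interval as a whole (62.3 to 107). The ratio of the flanks was near that of the rest of chromosome 5, 14.8 (12.8 to 17.2), and that of the genome outside the interval, 16.0 (15.4 to 16.5). These intervals were derived from Wilson limits on the share of KO peaks among all peaks counted, and cover counting error only. KO peaks covered 15.8 kb in the block and WT peaks 14.4 kb. In the flanks KO peaks covered 0.775 kb and WT peaks 8.33 kb. The block was 0.0151% of the genome and held 0.345% of all WT peaks and 2.36% of all KO peaks, or 30.1% of the KO peaks of chromosome 5. A window of chromosome 8 with 16 defensin genes (19 to 20 Mb) stood at 77.6 KO per 100 WT peaks (58.96 to 102), and a window of chromosome 10 with 3 Zfp genes (81 to 82 Mb) at 4.69 (2.43 to 9.04).

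Similar numbers did not mean the same positions. In the block 24 WT peaks, or 30% (Wilson 95% interval 21.1 to 40.8), had 1 bp or more in common with KO peaks, as had 26 KO peaks, or 29.2% (20.8 to 39.4), with WT peaks. Over the whole lists these shares were 2.42% of WT and 16.1% of KO peaks. Since the interval was chosen for its peaks in both lists, nothing is read from that difference. In the flanks 1 WT and 1 KO peak overlapped, and they did so with each other, at chr5:14899875-14900315, next to the block. Over the interval 25 WT and 27 KO peaks were shared, 21.7% and 28.7%. In the block 56 WT and 63 KO peaks touched no peak of the other list. Of these, 27 WT peaks (48.2%) and 25 KO peaks (39.7%) lay within 1 kb of one, and the median distance was 1195 bp from such WT peaks to a KO peak and 1685 bp from such KO peaks to a WT peak.

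Counting by sequence group takes in nearly every overlap by position and adds to it, so a higher number common to both lists follows largely from the definition. Of the 209 members, 124 belonged to 26 groups that spanned more than 1 place. Of these groups 16 held peaks of both lists, 5 WT peaks alone and 5 KO peaks alone. Counting all groups, 45 of the 80 WT peaks of the block, 56.3% (45.3 to 66.6), and 50 of the 89 KO peaks, 56.2% (45.8 to 66.0), were in a group with peaks of both lists. In the block 62.2% of 31-mers occurred again in the interval, and the share that this alone would give was not computed. Reads that fit several copies were placed at random, so a peak of group 1 or 3 cannot be tied to 1 copy, and for such peaks a difference in position between the lists and the random placement cannot be told apart.

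The dense block held a set of duplicated genes, with 7 protein-coding genes of 4049 to 5209 bp that were at least 80% identical to Speer4c over their whole length and are called Speer4-like. In order these were Gm9758 (chr5:14910122-14914899), Speer4e (chr5:14933221-14938429), Gm10354 (chr5:14974113-14978935), Gm17019 (chr5:15028950-15032998), Speer4d (chr5:15124882-15129682), 4930572O03Rik (chr5:15158104-15162877) and Speer4c (chr5:15215319-15220054). Speer4d lies on the + strand and the others on the - strand. Between them, the 21 pairs were 74.7% to 97.9% identical, with a median of 89.4%. In the block 62.2% of 31-mers occurred again in the interval and 32.9% occurred once in the genome, compared with 84.6% that occurred once in each flank. Of the block's peaks, 63 WT (78.8%) and 81 KO (91.0%) had a median copy number of more than 1 and up to 10 in the genome, 55 WT (68.8%) and 71 KO (79.8%) were repeated within the interval and nowhere else, and none had more than 1000 copies. In the flanks 18 of the 35 WT peaks (51.4%) had more than 1000 copies. Over the whole lists, 15.5% of WT and 24.6% of KO peaks had more than 1 and up to 10 copies. More than 1000 copies were found for 35.4% of WT and 7.44% of KO peaks.

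The assembly itself was incomplete here. A gap of 50 kb without sequence lay at chr5:15062667-15112666, between Gm17019 and Speer4d. The RefSeq table for a later build, GRCm38.p6, lists 6 genes between the same neighbours, 3 of them protein-coding (Gm21149, Gm21190 and Gm21083), where the annotation of mm9 lists none. The part of sequence missing from mm9 in these peaks was not tested.

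**Figure D2:**
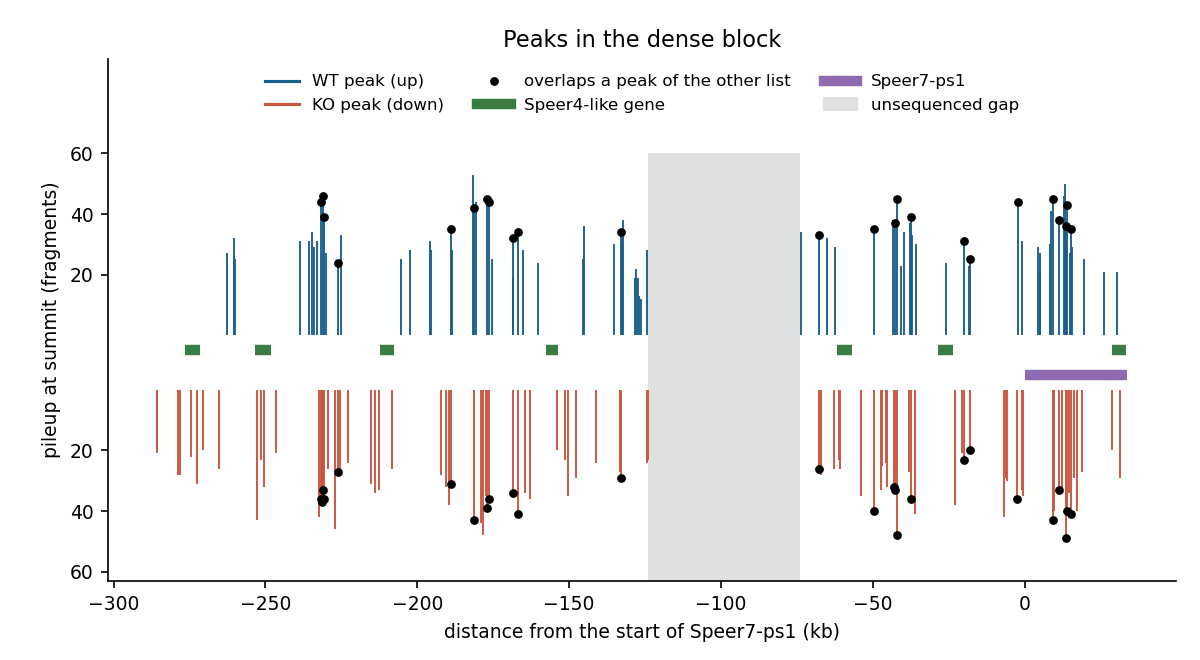
Pileup at the summit, in fragments, of each WT peak (lines up) and KO peak (lines down) of the dense block against the distance from the start of Speer7-ps1 in kb. Dots mark peaks that overlap the other list, green bars the 7 Speer4-like genes, the purple bar Speer7-ps1 and grey the gap of 50 kb. Peaks recur between the genes in both lists.

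Peaks of the block were high on a high background. The pileup, the number of fragments over the summit, had a median of 31 in WT (12 to 53) and 32 in KO (20 to 49), compared with 10 over each whole list. The local background, the number of fragments that the peak caller set as the level without enrichment, had a median of 10.01 in WT and 9.99 in KO, or 8.63 and 9.36 times the lowest background of each list. The fold enrichment had medians of 2.87 in WT and 3.04 in KO, against 4.63 and 4.84 over the whole lists, where most peaks stood near the lowest background. At a background over 10, the medians were 2.60 in WT and 2.69 in KO in the block. Outside the interval they were 2.86 and 2.61, so the block was not low for its background. A background over 3 fragments was found for 78 of the 80 WT peaks and all 89 KO peaks of the block, compared with 4.04% of all WT and 17.3% of all KO peaks. In the flanks 32 of 35 WT peaks had a background of at most 3, with a median of 1.31. Peaks of the chromosome 8 defensin window were much alike. Their median pileup was 27 in WT and 29 in KO, and their median background 7.98 and 9.08. The fold enrichment there was 3.15 and 3.13, and 71.6% of WT and 72.2% of KO peaks had more than 1 and up to 10 copies. High background and repeated sequence thus came together in the block and in that window, and their part in the peak numbers was not tested.

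**Figure D3:**
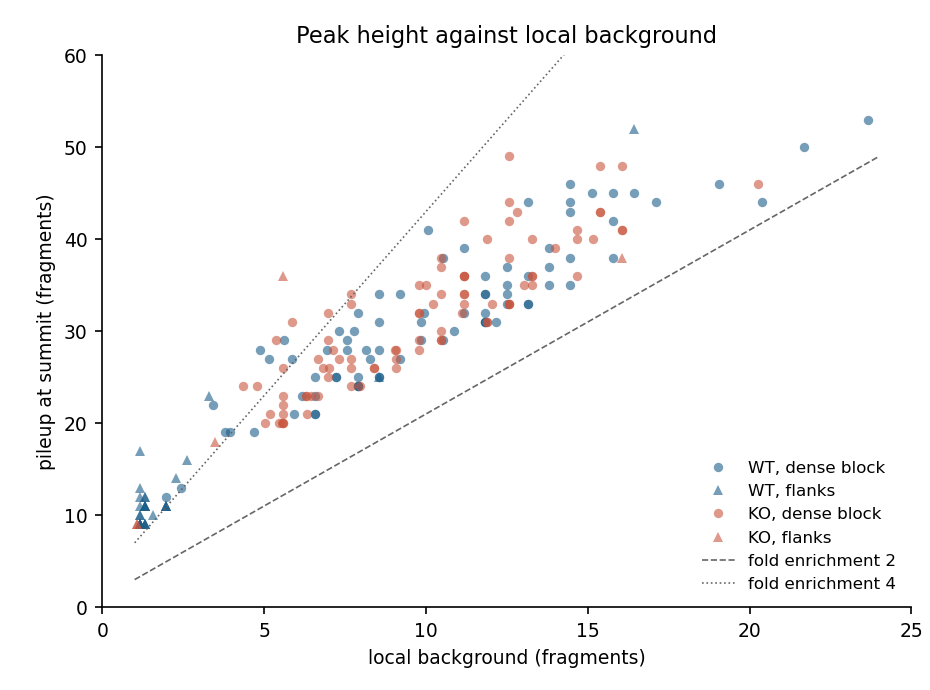
Pileup at the summit against local background, both in fragments, for the 115 WT and 94 KO peaks. Circles are peaks of the dense block, triangles those of the flanks, and the lines show a fold enrichment of 2 and 4. Peaks of both lists from the block lie along the same band, and most flank peaks sit at the lower left.

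The share of overlapping peaks was higher at a higher background, in the block and elsewhere. Of the WT peaks of the block, 4 of 38 with a background over 3 and up to 10 were shared, 10.5% (4.17 to 24.1), and 20 of 40 with a background over 10, 50% (35.2 to 64.8). Outside the interval these shares were 22.4% (19.3 to 25.9) and 66.4% (60.1 to 72.1). Of the KO peaks of the block, 5 of 45 in the lower class were shared, 11.1% (4.84 to 23.5), and 21 of 44 in the higher class, 47.7% (33.8 to 62.1). Outside, the KO shares were 36.2% (31.4 to 41.4) and 86.8% (81.5 to 90.8). These shares describe an interval selected on its peaks in both lists, so nothing is read from the difference between inside and outside.

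**Figure D4:**
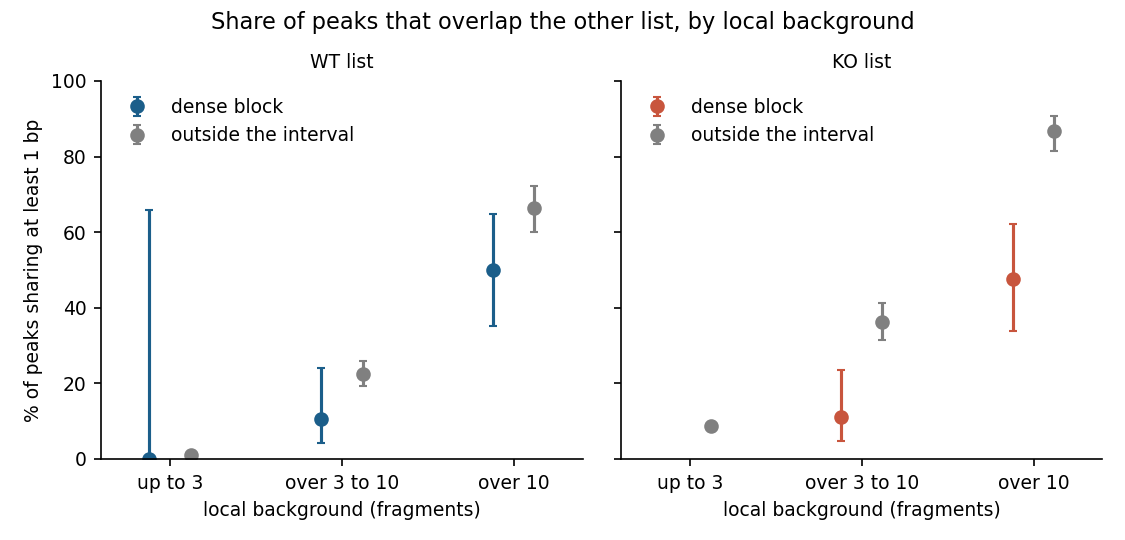
Percentage of WT peaks (left) and KO peaks (right) that share at least 1 bp with the other list, by class of local background in fragments. Coloured points are the dense block, grey points the genome outside the interval, and bars are Wilson 95% intervals. Shares are higher at a higher background in both lists; for WT peaks of the block, 10.5% over 3 and up to 10 fragments and 50% over 10.

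Where a WT and a KO peak did overlap, their heights were similar. Only places called in both lists enter here, so those where the KO signal fell below calling are left out. In the 26 overlapping pairs of the block the median pileup was 37.5 in WT and 36 in KO. The KO pileup was lower in 18 pairs and higher in 8, and the ratio of KO to WT ran from 0.717 to 1.36 with a median of 0.889. The lowest background of the KO list was 0.921 times that of the WT list, and outside the interval the median ratio over 590 pairs was 0.895. The fold enrichment was lower in KO in 12 of the 26 pairs. The largest gain in pileup lay at chr5:15200151-15200295 in Speer7-ps1, with 36 fragments in WT and 49 in KO, and the largest drop in ratio at chr5:14955118-14955547, the WT peak shown above, with 46 in WT and 33 in the lower of its KO peaks.

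The bodies of the Speer4-like genes held 2 of the 80 WT and 10 of the 89 KO peaks of the block. These were 7 genes of 4049 to 5209 bp in a block of 400 kb. Their share of its sequence was not computed, so neither count is read as a gain or a lack of peaks in the genes. The WT peaks lay in introns of 4930572O03Rik, with 24 fragments, and Speer4c, with 21. KO peaks lay in Speer4e (43, 23 and 32 fragments), Gm9758 (22 and 31), Speer4d (23 and 26), Gm10354 (26), Gm17019 (20) and Speer4c (29). Of the peaks of both lists in bodies, all but the KO peak in Gm10354 had a median copy number over 1. It reached 10 for the KO peak in Gm17019. With random placement, reads of such peaks may belong to another copy, so the counts per gene are not exact locations. The KO peak of 43 fragments in Speer4e, at chr5:14933808-14933985, was the only member that overlapped an exon. None of these 12 peaks overlapped a peak of the other list. The nearest lay from 736 bp away, in Speer4c, to 11.6 kb away, in Gm9758.

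The count around the gene starts takes in these bodies. Measured from the start of the nearest Speer4-like gene, 6 of the 80 WT peaks of the block, 7.5% (3.48 to 15.4), and 20 of the 89 KO peaks, 22.5% (15.04 to 32.2), lay within 5 kb. Of these, 2 WT and 10 KO peaks were the ones in gene bodies given above, and 4 WT and 10 KO peaks lay outside the bodies. Most peaks of both lists lay farther away, with 64 WT (80%) and 58 KO (65.2%) at least 10 kb from a start. How much of the block's sequence lies within 5 kb of a start, or at least 10 kb from one, was not computed. Neither count is thus read as a preference for a distance. The intervals cover counting error only and treat peaks as independent, although reads that fit several copies were placed at random. Without replicate libraries, the difference between the WT and KO counts within 5 kb is not read as a change between the groups. From 15 to 20 kb downstream there were 13 WT and 15 KO peaks, and from 15 to 20 kb upstream 8 and 13.

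**Figure D5:**
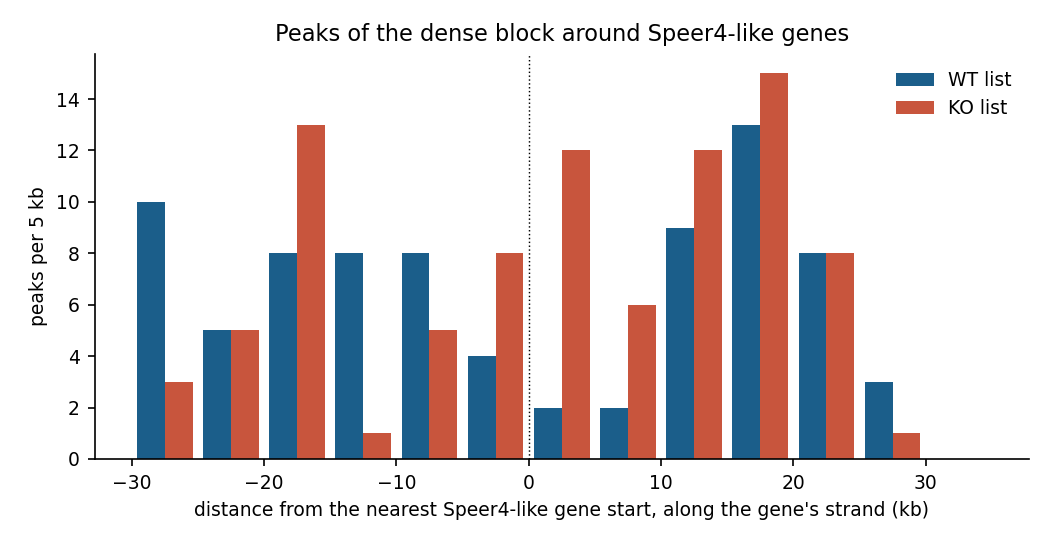
Number of WT and KO peaks of the dense block in 5-kb steps of the distance from the start of the nearest of the 7 Speer4-like genes, along the strand of that gene (kb, negative is upstream). KO peaks outnumber WT peaks within 5 kb of the start, 20 against 6. Without replicate libraries, this is not read as a change between the groups. The share of the block's sequence in each step was not computed, so the bars show no preference for a distance.

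The best-scored peaks of the block had several different copies as their nearest Speer4-like gene. In WT they were a peak of 41 fragments with a score of 8.47 at chr5:15195118-15195456 in Speer7-ps1, 1 of 28 fragments and 8.26 at chr5:15062015-15062122, which ends 544 bases short of the gap, and 1 of 29 fragments and 7.60 at chr5:15190929-15191019 in Speer7-ps1, whose sequence occurs once in the genome. None of these overlapped a KO peak, although KO peaks lay 106 and 98 bp from the first pair and 4543 bp from the last. In KO they were the peak of 49 fragments and a score of 10.4 at chr5:15200152-15200291 in Speer7-ps1, which lay whole within a WT peak, the peak of 31 fragments and 9.02 in Gm9758, and a pair upstream of 4930572O03Rik, with 29 fragments and 8.56 at chr5:15180291-15180456 and 42 fragments and 8.22 at chr5:15179766-15179845. Apart from the first, these KO peaks lay 3703 to 9616 bp from the nearest WT peak. Among WT peaks that were shared, the scores were lower. The best of the block, 44 fragments and 6.76 at chr5:15010074-15010442 near Gm17019, lay whole within a KO peak of 36 fragments, and the next, 46 and 6.50, is the WT peak printed above.

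Each peak of the block was assigned to the copy with the nearest start, and every copy had peaks of both lists assigned to it. Most of these lay outside the gene bodies. The nearest WT peak to Gm9758 was 8.73 kb from it. By nearest gene there were 3 WT and 8 KO peaks at Gm9758, 9 and 10 at Speer4e, 11 and 13 at Gm10354, 20 and 18 at Gm17019, 7 and 12 at Speer4d, 14 and 15 at 4930572O03Rik and 16 and 13 at Speer4c. Gm9758, at the edge of the block, was the copy without an overlapping pair. The median pileup ran from 27 to 34 in WT and from 24 to 34.5 in KO.

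Speer7-ps1 (chr5:15186528-15220414, + strand), an annotated long non-coding RNA of 33.9 kb that crosses Speer4c on the opposite strand, held the most peaks of any gene in the interval. It had 17 WT peaks of 21 to 50 fragments (median 30) and 13 KO peaks of 20 to 49 (median 34), with 5 of each list overlapping. None of them overlapped an exon. WT peaks covered 2.86 kb of it and KO peaks 2.56 kb. In its promoter, from 2 kb upstream to 0.5 kb downstream of a transcript start, there was 1 WT peak of 31 fragments and a pair of KO peaks of 33 and 35. Speer4d had 1 WT peak (29 fragments) and 3 KO peaks (26, 23 and 26) in its promoter. Gm9758, Speer4e and 4930572O03Rik each had 1 KO peak and no WT peak there. Promoters of the block held 2 WT and 8 KO peaks in all, and their share of the block was not computed.

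Other Speer genes carried few peaks. Speer3, the 1 Speer gene of the interval left of the block, had none in its body or promoter, and the nearest WT peak was 70.7 kb away. Speer4f and Gm3495, which were 85.2% and 84.9% identical to Speer4c and lay right of the block, had none in their bodies. Speer4f had 1 WT peak of 25 fragments in its promoter, and 7.80 kb upstream of it lay the KO peak with the highest score of the interval, 13.2, at chr5:16973959-16974117. This KO peak had 36 fragments, a fold enrichment of 5.61 and 5 copies, and the nearest WT peak was 5402 bp from it. That WT peak, at chr5:16979520-16979608 with 23 fragments, was among the 5 WT peaks of highest score. Within 30 kb of the start of the Speer genes outside the interval, Speer4a had 0 WT and 3 KO peaks, Speer4b 1 and 0 and Speer5-ps1 4 and 4, whereas Speer1-ps1, Speer2 and Speer6-ps1 had 0 in both lists. Peaks were many at the genes of the block and few at these other members of the family. The block was defined by bins with at least 5 peaks, so this contrast was set by that choice and nothing is read from it.

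Of the flank genes with any peak, all but 1 had peaks in WT alone. All 3 class 3 semaphorins of the interval, secreted guidance cues of axons and vessels, held WT peaks and no KO peak: 1 of 11 fragments in Sema3a, 2 of 11 and 9 in Sema3e and 1 of 10 in Sema3c. These genes span 0.864 Mb, so that they held 4.63 WT peaks per Mb, below the 8.73 per Mb of the whole list, and at 1.42 KO peaks per Mb over the whole list 0 KO peaks does not set them apart. Cacna2d1, an auxiliary subunit of voltage-gated calcium channels, held WT peaks of 9 and 11 fragments, Cd36, a fatty acid and lipoprotein receptor, 3 of 16, 9 and 11, and Gnai1, an inhibitory G protein subunit, 2 of 10 and 9. None of these had a KO peak. Pclo, which encodes a scaffold of the presynaptic active zone, was the exception, with no WT peak and 2 KO peaks of 9 fragments each. All of these peaks lay in introns, and Gnai1 had 1 further WT peak, of 9 fragments, in its promoter. The lowest pileup called was 9 in both lists, so that most of them stood at or just above the limit of calling, and a KO level just under it would not appear in the list. Of the 33 annotated genes, 23 were protein-coding, of which 8 held a WT peak, 7 a KO peak and 1, Speer4c, both.

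Flank peaks of WT were about as high as those of the whole list, and many were repetitive. Their pileup was 9 to 52 with a median of 11, against 10 over the whole WT list, and 5 of the 35 reached 15 fragments. The 32 with a background of at most 3 shared no base with a KO peak, which allows a share of up to 9.38%. Outside the interval 242 of 22219 such WT peaks were shared, 1.09%, so that the count of 0 does not set the flanks apart. The highest score of any WT member, 10.1, belonged to a peak of 106 bp left of the block at chr5:14272386-14272491, with 17 fragments on a background of 1.16 and a median copy number of 10740.5. The widest was 1110 bp, at chr5:17295694-17296803 in Cd36, with 16 fragments. Of the 5 widest WT peaks, 4 lay in the right flank, and none of the 5 overlapped a KO peak.

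Edges of the interval were checked for values close to its bounds. The first WT peak inside had 9 fragments and the last WT peak before it 15, and the last WT peak inside had 9 and the first after it 10. For KO, the first inside had 9 and the last before it 9, and the last inside had 36 and the first after it 9. The block, which holds most of the members, did not reach either edge.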

How the data were processed

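H3K9me3 and input ChIP-seq libraries made up a series of 7 samples, of which the peak lists of the WT and KO iMEF H3K9me3 libraries were analysed, and 5 samples were not used here. The authors aligned the single-end reads with Bowtie2 2.2.3 against mm9, placed a read with several valid sites at 1 of them at random, removed duplicates with Picard and called peaks with MACS2 2.1.0.20140616, as the submitters' processing notes and the file headers say. The caller's options are not given in the sources used here, and the lists hold no read totals, so depth is unknown. The deposited pileup is a fragment coverage (signal) at the summit. The deposited fold enrichment is a ratio of the pileup to the local background, each plus 1, from which the background was recovered. The deposited p-value and q-value are on a −log10 scale.

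Starts were read as counted from 0 and printed from 1, so each start may be off by 1 bp. The GENCODE M1 annotation and the NCBIM37 genome, which is mm9, gave genes, sequences and 31-mer copy numbers (the median over a peak). RefSeq (GRCm38.p6) gave neighbouring gene names alone. Identity was computed with edlib 1.3.9.post1 over the longer gene. Overlap needed 1 bp. Wilson 95% intervals cover counting error only, and a share of 0 allows 3 counts. The members, gene lists and comparisons were chosen with earlier results of these data known. Genes to be named were the Speer genes, Sema3e, Pclo, Cacna2d1, the class 3 semaphorins and the other coding genes with a peak. Peaks to be named were the 5 of highest score per list, the 5 widest WT peaks and up to 10 shared ones, of which the few that a result turns on are given. Overlap and 31-mer code was tested on simulated data. Python 3.11.15 was used with numpy 2.4.6, pandas 2.3.3, numba 0.67.0 and pysam 0.24.0.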

Additional observations from a re-analysis of the deposited data

How the results depend on the processing

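No paired analysis was possible because WT and KO had a single library each, and for the same reason no replicate could be left out. Counts of peaks and covered lengths moved by over 1.5 times under the following alternatives. At scores at or above the whole-list WT median of 3.04, 71 WT peaks were left. With both lists held to a background of at most 3, 34 WT and 2 KO peaks were left, covering 8.07 and 0.242 kb, at 5.88 KO per 100 WT peaks and with an overlap of 0% in both directions. With both lists held to peaks whose median 31-mer occurred once, 14 WT and 5 KO peaks were left, covering 2.03 and 0.531 kb, at 35.7 KO per 100 WT, and 0% of either overlapped a single-copy peak of the other list. Against the other list in full, 1 of these 14 WT and 1 of these 5 KO peaks were shared. Merging peaks within 1 kb gave 74 WT and 56 KO regions of 35.9 and 32.3 kb in all. Counted within 1 kb, 45.2% of WT and 55.3% of KO peaks were shared. The KO list passed from fewer to more peaks than the WT list at a pileup of at least 15, with 111 KO per 100 WT peaks, and in the dense block alone, an alternative chosen after seeing the data, with 111 again and 14.4 kb covered by WT peaks. Of 53 values over 9 alternatives, 29 stayed within these limits, and a required overlap of 50% and the span from the first to the last Speer gene moved none.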
